A study of Mus musculus with 8 samples.

Results

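The genes described here are 10 members of the interleukin 6 cytokine family and its signalling path, of 24358 genes in the table: the ligands Il6, Lif, Il11 and Clcf1, the receptor chains Il6ra, Il6st, Lifr and Osmr, the signal carrier Stat3 and the inhibitor Socs3. They were taken by gene symbol, and all 10 were found, as 17 transcript isoforms of which 16 were tested. The set was put together with earlier results of the same comparison known, so the differences between the groups are given as a description and lend no support of their own. The RNA came from adipocyte precursors, mesenchymal skin cells able to become fat cells, which were sorted by flow cytometry out of the dermis of male C57/Bl6 mice aged 7 weeks. The nonwounded group held 6 samples and the wound bed group 2 samples of day 5 wound beds. All samples carry the same strain label, and no transgene or drug is named. Neither the markers used in the sort nor the skin site is given in the sources used here, and it is not stated whether the samples came from separate animals, so the deposited p-values measure the spread between these samples, which may be technical.

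Each isoform has a single value per group, in FPKM (fragments normalised for transcript length and library size), so levels can be compared between genes per length. The table holds no value per sample, and therefore no SD, no depth per sample and no overlap of samples between the groups can be given. The p-values are those of the authors' deposited table, adjusted here by the Benjamini-Hochberg method over 17775 tested isoforms. A gene is called higher or lower where its major isoform, the tested one with the highest summed FPKM, has an adjusted p under 0.05. In bulk RNA of sorted cells, a change in the share of cells that make a transcript and a change in RNA per cell cannot be told apart. Pdgfra, a receptor gene that marks adipocyte precursors, had an FPKM of 78.8 in nonwounded skin and 81.2 in the wound bed, and was not called. Of 10 precursor markers 0 were called higher and 2 lower, namely Dpp4 (211 and 66.7) and Cd24a (24.9 and 9.38). Over all tested genes 7.00% were called higher and 8.68% lower. Pdgfrb (20.7 and 31.3) and Itgb1 (117 and 197) had higher values in the wound bed, without a call. The list summed to 4278 FPKM in nonwounded skin and 2677 in the wound bed. Most of either sum came from Ly6a (2691 and 1576) and Cd34 (1104 and 679), with isoforms added up, and neither was called.

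Most cytokines of this family signal through a shared receptor chain, gp130, encoded by Il6st. A ligand is also bound by a chain more specific to it, such as the interleukin 6 receptor (Il6ra), the leukaemia inhibitory factor receptor (Lifr) or the oncostatin M receptor (Osmr), and the complex activates Janus kinases and the transcription factor STAT3. STAT3 in turn induces Socs3, whose protein binds gp130 and shuts the signal down. In skin the family is known for its part in inflammation and wound repair, and in fat tissue interleukin 6 is a known product of stromal cells.

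The ligand Il6, the receptor Osmr and the inhibitor Socs3 differed most between the groups, whereas the shared chain Il6st and the interleukin 6 receptor Il6ra had nearly equal values. Of the 10 members, 5 were called higher in the wound bed (Il6, Osmr, Socs3, Stat3 and Lifr), 0 lower and 5 not. Over all 13719 tested genes, 7.00% were called higher and 8.68% lower, which stands beside the members' count for reference only, since they were chosen on this contrast. From the p-values of the authors' deposited table, the adjusted p was 0.000882 for Il6, Osmr, Socs3 and Stat3, 0.0134 for Lifr, 0.213 for Lif, 0.267 for Il11, 0.595 for Clcf1, 0.828 for Il6ra and 0.848 for Il6st. At an adjusted p under 0.01 the call of Lifr was lost and 4 members were called. The wound bed value was the higher one for 9 members and the lower one for Il6ra alone. The members' log2 fold changes (wound bed over nonwounded) had a median of 1.65, against -0.14 over the 13135 tested major isoforms with values above 0 in both groups. All 10 members reached an FPKM of 1 in the higher group, and 8 did so in both.

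**Figure D1:**
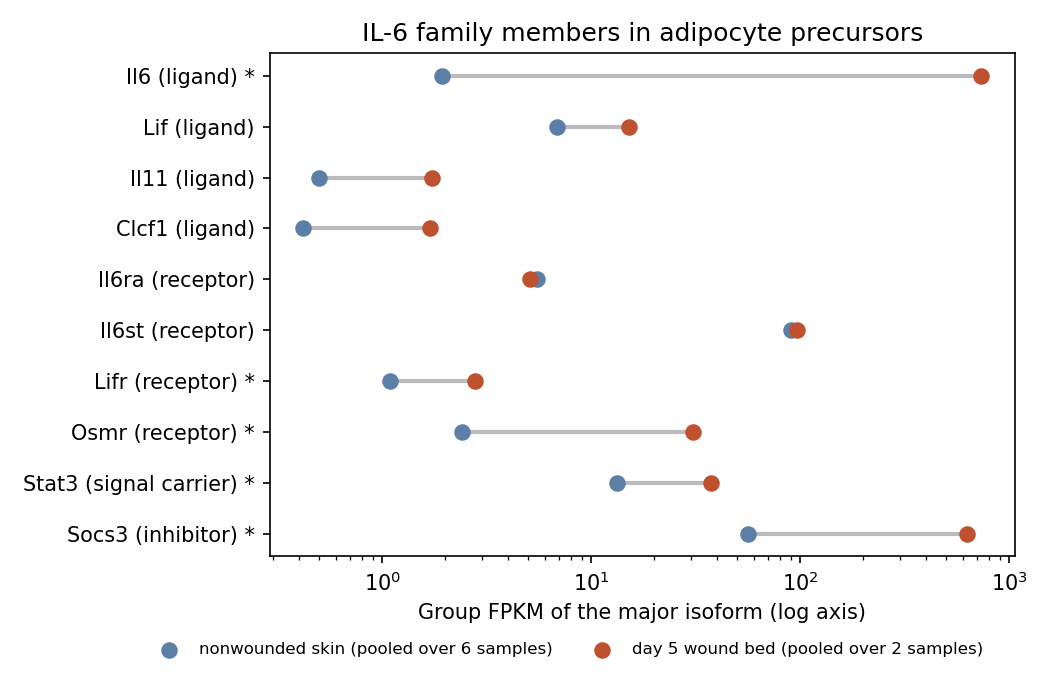
Group FPKM of the major isoform of each member (horizontal log axis) in nonwounded skin (blue, pooled over 6 samples) and the wound bed (red, pooled over 2 samples), with a grey line joining the values and an asterisk on the 5 genes called higher. The points of Il6 lie farthest apart (1.94 and 736), and those of Il6st (90.5 and 96.2) and Il6ra (5.52 and 5.09) almost coincide.

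Among the ligands, Il6 encodes interleukin 6 itself, a secreted cytokine of the acute inflammatory response. Its FPKM was 1.94 in nonwounded skin and 736 in the wound bed, a 380-fold difference or 8.57 on the log2 scale. This was the largest log2 fold change among 10631 genes whose major isoform reached an FPKM of 1 in each group, a limit that leaves out genes lower in nonwounded skin such as Saa3 (log2 fold change 11.98). By the level summed over isoforms, Il6 ranked 10996 of 24351 genes in nonwounded skin and 116 in the wound bed, and so went from a low transcript to one of the most abundant. The table places Il6 on chromosome 5 from 30013161 to 30019968, and its only listed isoform, NM_031168, encodes 211 residues over 5 exons in the GENCODE model.

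Interleukin 6 is also made by leukocytes, and markers of myeloid cells differed between the same columns. Of 15 tested macrophage and monocyte markers 11 were called higher and 0 lower, beside 7.00% and 8.68% over all tested genes. Of 17 listed symbols 16 were found, and the other, Emr1, is an older symbol of Adgre1, which was found. The list summed to 334 FPKM in nonwounded skin and 1036 in the wound bed, of which Lyz2 alone took 174 and 524. The myeloid receptor gene Cd14 rose from 5.42 to 61.8, and the pan-leukocyte gene Ptprc stood at 0.453 and 4.13 without a call. Cd163 (3.51 and 1.26) and Aif1 (12.2 and 7.80), on the same list, had lower values in the wound bed and were not called. The neutrophil list summed to 2.84 and 105 FPKM, with 0 of 5 tested genes called. In the wound bed S100a9 (56.9) and S100a8 (40.0) made up most of that sum. Cxcr2, Mpo, Ngp, Camp and Ltf were each under 1 FPKM in both groups. No gene found from the macrophage or the neutrophil list was at 0 in both groups. The 9 T and B cell markers were each under 1 FPKM in both groups, and summed to 0.866 and 1.98. Of 5 tested mast cell markers 4 were called lower, of 5 endothelial markers 1 lower, and of 6 keratinocyte markers 2 higher. The part of these cells in the values of Il6 and the other members was not tested.

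Among the genes whose group values lay nearest to those of Il6, by Euclidean distance on log2(FPKM + 1) over the 2 group values, were Ccl2, Apoe, Ptx3 and Ier3. The monocyte chemokine gene Ccl2 had values of 5.60 in nonwounded skin and 776 in the wound bed (distance 1.17). For Apoe, an apolipoprotein gene, the likeness held for the major isoform alone (2.26 and 304), because its isoforms summed to 187 and 347. With only 2 values per gene, such a likeness describes level and size of difference and no more.

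The bases just before the Il6 start are shown because this promoter is a known target of inflammatory transcription factors and holds matches to 3 of the 5 motifs searched. The window, from RefSeq (GRCm38.p6), comprises the 250 bases ahead of the transcript start on the plus strand at chr5:30012864-30013113, with matches in capitals.
Il6: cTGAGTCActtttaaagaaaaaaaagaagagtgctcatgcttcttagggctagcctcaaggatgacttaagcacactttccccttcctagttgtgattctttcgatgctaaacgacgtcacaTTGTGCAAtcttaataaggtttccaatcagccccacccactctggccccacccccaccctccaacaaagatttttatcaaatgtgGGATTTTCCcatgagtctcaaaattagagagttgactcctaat
The capitals mark, from left to right, an AP-1 match at 249 to 243 bases before the start, a C/EBP match at 128 to 121 and an NF-kB match at 43 to 35. The motifs were searched on both strands as TGANTCA for AP-1, TTGNNCAA for C/EBP, GGANTTTCC for NF-kB, TTCNNNGAA for STAT and TGACGTCA for the cyclic AMP response element, and no matches overlapped in the windows of the members. Of 32851 RefSeq windows of the same length, 6.75% held the AP-1 letters, 5.65% the C/EBP letters and 1.07% the NF-kB letters. A match describes these letters and does not show binding.

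Lif, which encodes leukaemia inhibitory factor, was the most abundant of the 4 ligands in nonwounded skin. Its major isoform NM_008501 had an FPKM of 6.90 there and 15.2 in the wound bed, a log2 fold change of 1.14 without a call. Its other isoform, NM_001039537, encodes a shorter protein of 158 residues against 203 and had values of 2.25 and 2.14. The longer form made up 75.4% of the gene's summed FPKM in nonwounded skin and 87.7% in the wound bed, a difference that was not tested.

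Il11 encodes interleukin 11, a gp130 cytokine studied in fibrosis, and was low in both groups, at 0.500 FPKM in nonwounded skin and 1.73 in the wound bed (log2 fold change 1.79, not called). In either group 99.98% of its sum was assigned to NM_001290423, an isoform of 140 coding residues whose GENCODE model begins at an upstream start (position 4782857 on the minus strand of chromosome 7). NM_008350, with 199 residues and a start at 4778141, had values of 0.00012 and 0.0004 and was not tested. At levels this low the split of reads between the isoforms is uncertain, and it does not show which form the cells make. Clcf1 encodes cardiotrophin-like cytokine factor 1, a ligand of the ciliary neurotrophic factor receptor. Its major isoform had values of 0.420 and 1.69 (log2 fold change 2.01, not called), and its 3 isoforms summed to 0.812 and 4.50. Lif, Il11 and Clcf1 thus had higher values in the wound bed by their major isoforms, and none of these 3 genes was called.

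The order of the 4 ligands differed between the groups. In nonwounded skin the isoform sums ran from Lif (9.15) over Il6 (1.94) and Clcf1 (0.812) to Il11 (0.500). In the wound bed Il6 (736) came before Lif (17.4), Clcf1 (4.50) and Il11 (1.73). Il6 accounted for 15.6% of the summed FPKM of the 4 ligands in nonwounded skin and 96.9% in the wound bed, and Lif for 73.8% and 2.29%. Since no spread over samples is available, it cannot be said which neighbours in these orders differ beyond it.

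**Figure D2:**
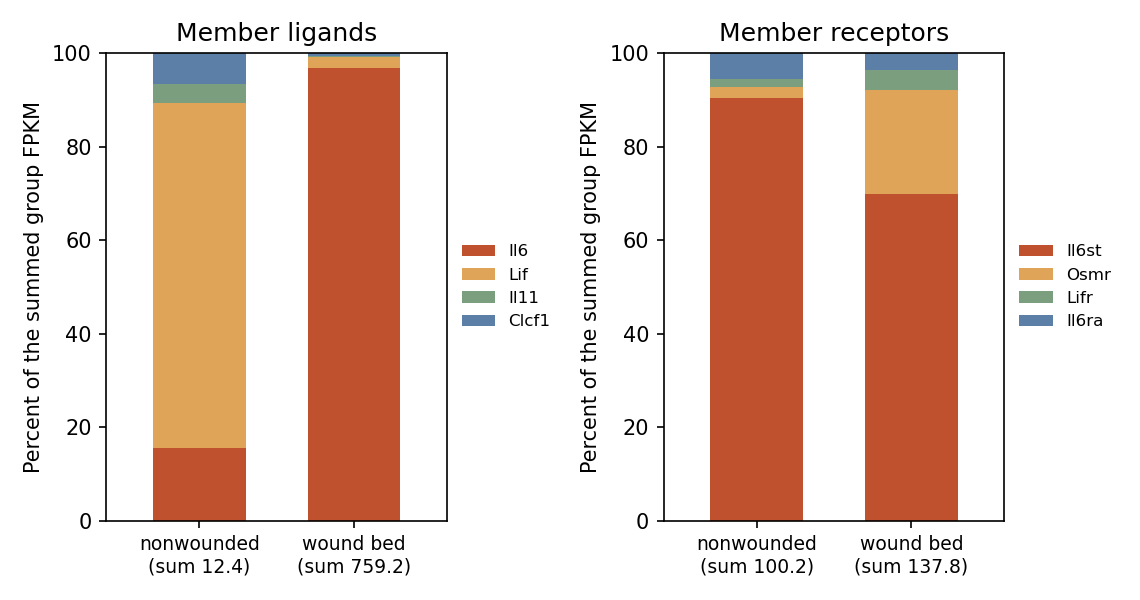
Percent of the summed group FPKM (vertical axis, isoforms added up) that each member ligand (left) and member receptor (right) takes in nonwounded skin and the wound bed, with the sum in FPKM under each bar. Il6 goes from 15.6% to 96.9% of the ligand sum, and Osmr from 2.40% to 22.3% of the receptor sum, in which Il6st remains the largest part.

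Among the receptors, Il6st, which encodes the shared chain gp130, had an FPKM of 90.5 in nonwounded skin and 96.2 in the wound bed, a log2 fold change of 0.09 without a call. Il6ra, which encodes the chain that binds interleukin 6, had values of 5.52 and 5.09, a log2 fold change of -0.12, also without a call. Per length, Il6st was at 16.4 times the level of Il6ra in nonwounded skin and 18.9 times in the wound bed. A missed call does not show that the groups were equal, and no interval of the difference can be had from the table.

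Osmr encodes the receptor chain that pairs with gp130 to bind oncostatin M. Its FPKM rose from 2.41 to 30.7, a 12.8-fold difference or 3.67 on the log2 scale, and its log2 fold change ranked 62 among the 10631 genes. Osmr was below Il6ra in nonwounded skin, at 0.436 times its level, and above it in the wound bed, at 6.04 times. Its share of the summed FPKM of the 4 receptor chains was 2.40% in nonwounded skin and 22.3% in the wound bed.

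Lifr encodes the chain that binds leukaemia inhibitory factor, and its isoforms differ in length. NM_013584 encodes 1092 residues, and NM_001113386 ends earlier and encodes 719 residues. A shorter, secreted form of this receptor, which can bind the ligand without signalling, is known in mice. The longer isoform rose from 1.09 to 2.78 FPKM, a log2 fold change of 1.35. The shorter isoform had values of 0.705 and 3.01, a log2 fold change of 2.09, and was not called (adjusted p = 0.0866, from the authors' deposited table). The shorter form took 39.3% of the gene's summed FPKM in nonwounded skin and 51.9% in the wound bed, a difference in share that was not tested.

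**Figure D3:**
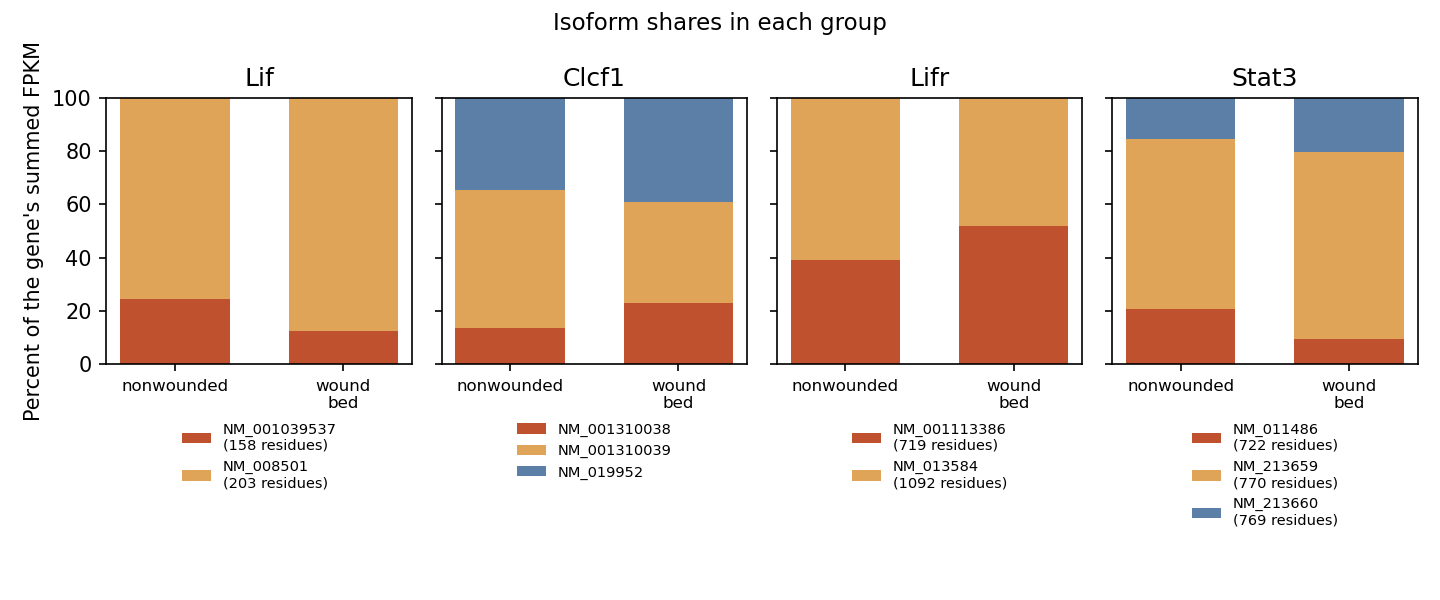
Percent of each gene's summed FPKM (vertical axis) in each isoform of Lif, Clcf1, Lifr and Stat3, in nonwounded skin and the wound bed, with the coding length where 1 GENCODE model matched. The 719-residue form of Lifr goes from 39.3% to 51.9%, and the 722-residue form of Stat3 from 20.9% to 9.50%.

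Stat3 encodes the transcription factor that carries the signal to the nucleus. Its major isoform NM_213659, of 770 residues, rose from 13.3 to 37.6 FPKM, a log2 fold change of 1.50. NM_213660, with 769 residues, had values of 3.24 and 10.8 and was not called. NM_011486 encodes 722 residues, the length of the known beta form, which lacks the transactivation domain at the C terminus, and had values of 4.36 and 5.08 (log2 fold change 0.22, not called). The 3 isoforms summed to 20.9 and 53.4, and the 722-residue form made up 20.9% of the sum in nonwounded skin and 9.50% in the wound bed. Each of the 3 isoforms has 24 exons in its GENCODE model and they share most of their sequence, so the split of reads between them is uncertain.

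Socs3 encodes the feedback inhibitor that STAT3 induces. It was already expressed in nonwounded skin, at an FPKM of 56.1, and rose to 626 in the wound bed, an 11.2-fold difference or 3.48 on the log2 scale. Socs3 ranked 1268 of 24351 genes in nonwounded skin and 138 in the wound bed. Per length, its level was 2.69 times that of Stat3 in nonwounded skin and 11.7 times in the wound bed. The genes whose group values lay nearest to Socs3 were the stress-responsive transcription factor gene Atf3 (51.3 and 644, distance 0.133), Scarna17, the complement gene Cfb, the early response gene Fosb and the matrix protease gene Mmp3 (81.0 and 653).

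The Socs3 window is shown because Socs3 is a known STAT3 target and this is the only member window with a match to the STAT letters. It lies on the minus strand at chr11:117969367-117969616 (RefSeq, GRCm38.p6), with the match in capitals.
Socs3: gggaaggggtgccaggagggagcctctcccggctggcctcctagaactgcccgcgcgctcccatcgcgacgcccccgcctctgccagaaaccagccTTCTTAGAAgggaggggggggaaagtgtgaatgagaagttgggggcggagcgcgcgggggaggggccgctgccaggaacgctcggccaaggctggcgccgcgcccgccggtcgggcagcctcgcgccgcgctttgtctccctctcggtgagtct
The capitals mark a STAT match at 154 to 146 bases before the RefSeq start. The GENCODE model of NM_007707 starts at another position (117969186), so this distance depends on the start used. The same letters occurred in 7.02% of the 32851 windows. RefSeq windows were found for 9 of the 10 members (all but Clcf1), 11 windows in all because Il11 and Lifr have several starts. The other matches among the members were AP-1 letters at 228 to 222 bases before the Lif start and at 98 to 92 bases before the downstream Il11 start. The windows of Il6ra, Il6st, Lifr, Osmr and Stat3 held none of the 5 motifs, which says only that these letters do not occur there. The Il6 window had 42.8% G and C and the Socs3 window 71.6%, against a median of 52.4% over all windows.

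**Figure D4:**
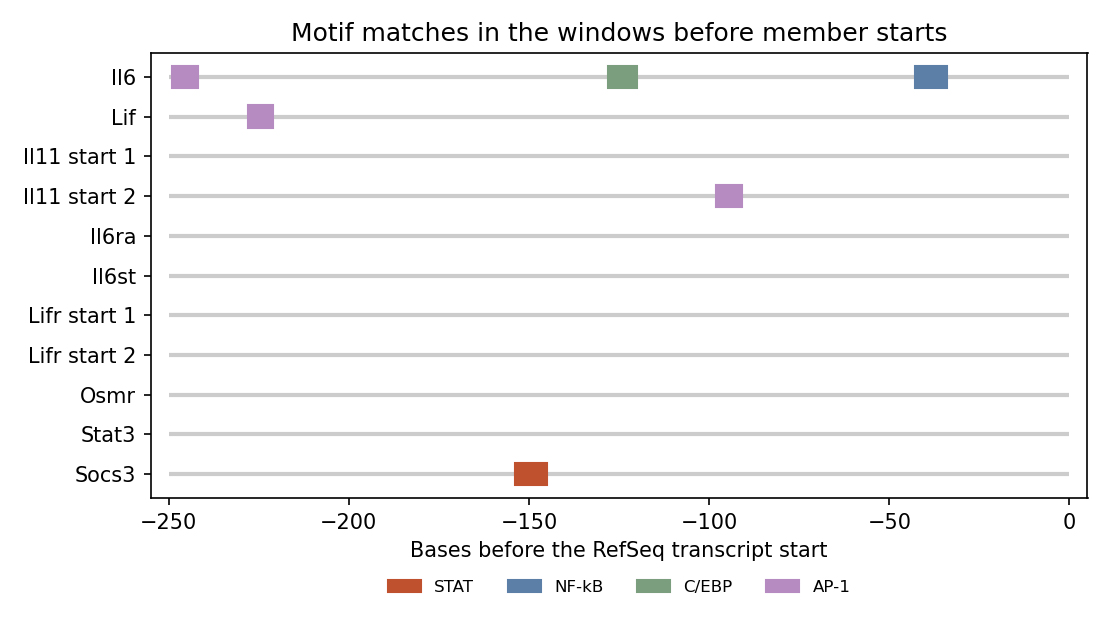
Motif matches (coloured boxes) in the 250 bases before each RefSeq start of the members (rows), with the distance to the start on the horizontal axis. Il6 carries AP-1, C/EBP and NF-kB matches, Socs3 a STAT match, Lif and the downstream start of Il11 an AP-1 match, and the other 7 windows none.

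The remaining genes of the path were taken from lists by role, with the members included. The counts that follow stand beside 7.00% called higher and 8.68% lower over all tested genes. As the lists were chosen with earlier results known, that share is for reference only. Of 12 family ligands 9 were tested, and Il6 and Osm were called higher and 0 lower. Osm, which encodes oncostatin M, the ligand of Osmr and a product of myeloid cells, rose from 0.418 to 6.24 FPKM, a log2 fold change of 3.90. From the p-values of the authors' deposited table its adjusted p was 0.0408, and the call was lost at a threshold of 0.01. Of the macrophage and monocyte markers, 11 of 15 were called higher in the same column, as given above, and their part in the level of Osm was not tested.

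Of 8 family receptors, Lifr and Osmr were called higher and Il31ra lower. Il31ra encodes the chain that pairs with the Osmr product to bind interleukin 31, and its FPKM was 13.7 in nonwounded skin and 1.17 in the wound bed, a called log2 fold change of -3.55. The genes of both chains of this receptor thus moved in opposite directions. Il11ra1, the interleukin 11 receptor gene, summed to 90.9 in nonwounded skin and 165 in the wound bed without a call of its major isoform, and near-identical gene copies make its values uncertain. Cntfr, the ciliary neurotrophic factor receptor gene, had values of 2.76 and 5.31 without a call.

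Of 16 kinase, STAT and adaptor genes, 2 were called higher and 2 lower. Counts this small are not set apart here from the 7.00% and 8.68% over all tested genes. Jak2, a kinase gene of gp130 signalling, rose from 3.92 to 19.2 FPKM (log2 fold change 2.29), whereas Jak1, of the same family, had values of 69.8 and 91.6 without a call. The transcription factor genes Stat5b and Stat6 fell by 0.80 and 0.73 on the log2 scale. From the p-values of the authors' deposited table, the adjusted p was 0.0371 for Jak2, 0.0290 for Stat5b and 0.0348 for Stat6, and these calls were lost at a threshold of 0.01. Of the 7 STAT genes on the list, Stat3 alone was called higher. Of the 4 genes of receptor shedding, among them the proteases Adam10 and Adam17, 0 were called in either direction.

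Of 15 inhibitors of the path, 5 were called higher and 0 lower, with a median of 0.35 on the log2 scale. Socs1, which inhibits Janus kinases, rose from 2.96 to 33.6 FPKM (log2 fold change 3.51), beside 3.48 for Socs3, and stood at a lower level than Socs3 in both groups. Cish, a further member of the SOCS family, rose from 4.28 to 21.8. The phosphatase genes Ptpn1 and Ptpn2, whose proteins remove phosphate from Janus kinases and STATs, rose by 1.18 and 1.41 on the log2 scale, and the call of Ptpn2 was lost at an adjusted p under 0.01. The other SOCS genes, Socs2, Socs4, Socs5, Socs6 and Socs7, and the 4 Pias genes were not called.

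Of 25 genes known as STAT3 targets, 15 were called higher and 0 lower, with a median log2 fold change of 2.38. Over all tested genes 7.00% were called higher and 8.68% lower. Timp1, an inhibitor of matrix proteases, rose from 26.5 to 988 FPKM. The acute phase gene Saa3 rose from 0.814 to 3295. Lcn2, which encodes the siderophore-binding protein lipocalin 2, rose from 1.15 to 35.3. From the p-values of the authors' deposited table the adjusted p was 0.0473 for Saa3 and 0.0115 for Lcn2, and these calls were lost at a threshold of 0.01. Cebpd, Bcl2l1, Ccnd1 and Il4ra had lower values in the wound bed and were not called. Many genes of this list also answer to other inflammatory signals.

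Of 16 genes that control Il6 transcription or the stability of its mRNA, 12 were called higher and 0 lower, with a median of 2.73. The share over all tested genes was 7.00% higher and 8.68% lower. The NF-kB subunit gene Rel rose from 0.317 to 7.73 FPKM, and Nfkbiz, which encodes a nuclear cofactor known for Il6 induction, from 5.74 to 157. Atf3, the gene nearest to Socs3 above, is also on this list. The adjusted p of Rel from the authors' deposited table was 0.0373, and its call too was lost at 0.01. Genes of proteins that break down Il6 mRNA were also called higher. Zc3h12a, which encodes the RNase regnase 1, rose from 2.45 to 18.4, and Zfp36, which encodes the mRNA-destabilising protein tristetraprolin, from 270 to 2114. Rc3h1, a further gene of mRNA decay, was called higher with a log2 fold change of 0.88, a call lost at 0.01 and with a minimum log2 fold change of 1, and its relative Rc3h2 was not called. Arid5a, also on the list of Il6 mRNA control, had values of 0.103 and 13.2 by its major isoform and was not called. At an adjusted p under 0.01 the list had 8 genes called higher.

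**Figure D5:**
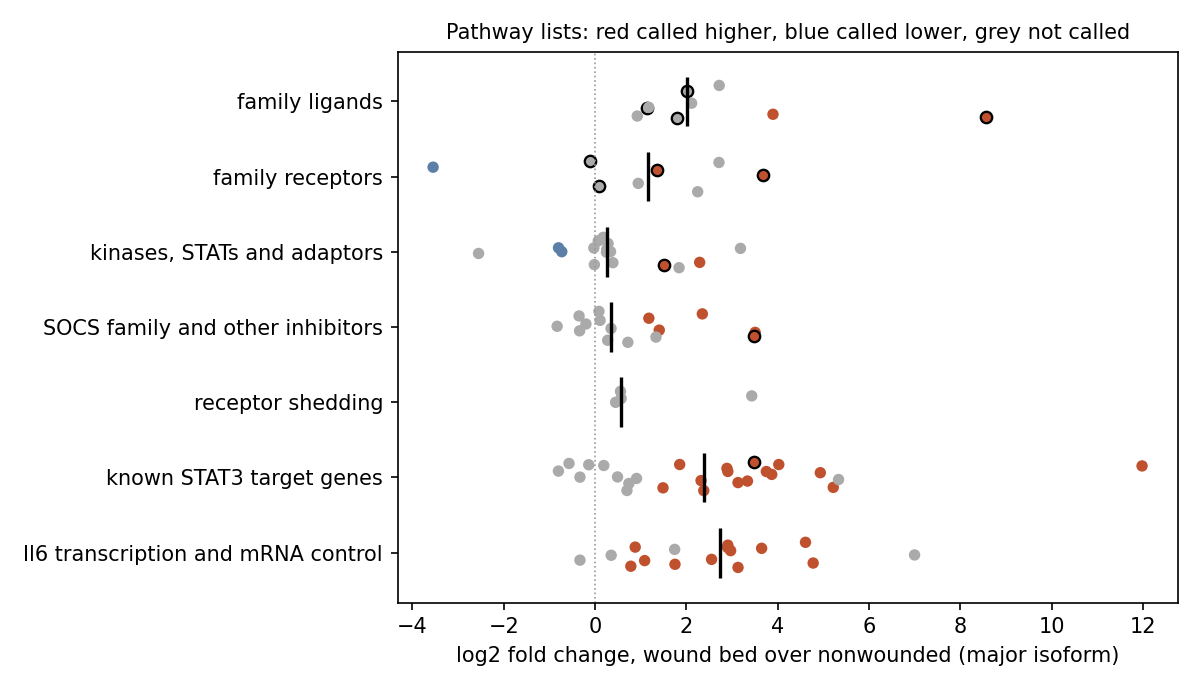
Log2 fold change of the major isoform (horizontal axis, wound bed over nonwounded) for each tested gene of the 7 pathway lists (rows), with red points for genes called higher, blue for lower and grey for no call, a black bar at the median and black rims on the 10 members. The medians run from 0.25 for kinases, STATs and adaptors to 2.73 for Il6 transcription and mRNA control.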

How the data were processed

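Per the labels' protocols, libraries were prepared with the TruSeq mRNA method of Illumina, and TopHat2 2.0.2 and Cuffdiff 2.0.2 were used, per the submitters' processing notes. The authors deposited 1 table of 34535 isoforms with the FPKM of each group, pooled over its samples (6 nonwounded, 2 wound bed), and a p-value per isoform. A count test does not suit FPKM, and none was run. The Benjamini-Hochberg adjusted p under 0.05 gave the same call as the table's own column for all 34535 isoforms. On simulated p-values, with 200 small ones planted among 17775, the adjustment recovered 100%, and the others made up 5.21% of its calls. The planted p-values were drawn small from the start. The check thus covers the adjustment alone and says nothing on the power of the comparison. The smallest deposited p, 5e-05, was shared by 1008 isoforms. Log2 fold changes are wound bed over nonwounded, without a pseudocount. Isoforms whose status was failed or too many fragments were left out of sums, and 56 isoforms with symbols turned into dates were restored through RefSeq.

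The notes name mm9, but for 10 of 10 members the locus began or ended at most 100 bases from the GRCm38 position of the gene, so the build of the printed loci is uncertain. Transcript models are from GENCODE vM21, matched by RefSeq identifier. The genes named were the members, up to 3 called genes per direction and list with an FPKM of at least 1, and the 5 genes nearest to Il6 and to Socs3, of which 1 is not reported here. Other genes (Pdgfra, Ptprc, Lyz2, Cd163, Aif1, Jak1, Cntfr, Il11ra1, Ptpn1, Ptpn2, Zc3h12a, Zfp36, Rc3h1 and those named without a call) were picked with their values known. The members and lists were chosen with earlier results of these data known. The alternatives were other thresholds, FPKM minimums, pseudocounts, centring and isoform sums. Computations used Python 3.11.15, numpy 2.4.6 and pandas 2.3.3.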

Additional observations from a re-analysis of the deposited data

How the results depend on the processing

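The counts of called genes were recomputed with adjusted p thresholds of 0.01 and 0.1, a minimum log2 fold change of 1 in size, adjustment over isoforms that reach an FPKM of 1, an FPKM minimum of 1 in each group, and any tested isoform of a gene. Of these 96 counts for the members and the pathway lists, 88 stayed within 1.5 times. Counts of 0 that stayed at 0 were included as unchanged, and many of the 88 are of this kind. At an adjusted p under 0.01 the counts called higher were 1 for family ligands, 1 for family receptors and 1 for kinases, STATs and adaptors, and the count called lower in the last list was 0. With the minimum fold change that count called lower was also 0. With the FPKM minimum in each group 1 family ligand was called higher, since Osm was under it in nonwounded skin. In receptor shedding 1 gene was called higher at an adjusted p under 0.1 (Rhbdf2), and 1 was called lower with any isoform counted (Rhbdf1). The members' fold changes kept their sign under centring on the median of -0.11 and under isoform sums. For Il6ra, however, centring took the log2 fold change from -0.12 to -0.009, so its sign carries little weight. For members with 1 isoform the sum is the same value, so it could not differ. Pseudocounts of 0.1 and 1 cannot change a sign and altered the size alone. For Il11 the log2 fold change went from 1.79 to 0.87 with a pseudocount of 1. Depth is unknown, and it limits the low values and the splits between isoforms. Leaving out samples was not run, since the table holds no value per sample. No paired analysis was possible because the columns carry no replicate numbers.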
